A study of Saccharomyces cerevisiae with 23 samples.

Results

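Expression was compared gene by gene between A3 and A2, a pair of aneuploid populations of budding yeast (Saccharomyces cerevisiae). Both came from the route named a-selection, and in both the cells carried different abnormal chromosome sets. The comparison takes 3 libraries of A3 and 3 of A2, which is 6 of the 23 libraries of the study, and all 6111 genes that passed a filter on low counts out of 6596 in the count table. The labels give strain BY4741, a common laboratory haploid of mating type a, for every library, and the genotype aneuploid for A2 and A3. All populations were grown overnight in rich medium (YPD) and then refreshed for 4 h at 23 °C in deep-well plates. The study looked for expression changes that heterogeneous aneuploid populations share against euploid ones, and A3 against A2 shows how far populations from the same route differed. The sources used here do not state which chromosomes were gained or lost in each population, or in what share of its cells.

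Aneuploid cells carry an unbalanced chromosome set, and genes on a gained chromosome are usually expressed more because there are more copies of them. Much of the yeast transcriptome also follows how fast cells grow. Genes for making ribosomes are expressed together in growing cells, while genes for stress protection, storage carbohydrates and the use of carbon other than glucose are expressed when glucose runs low or growth slows.

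Total counts were 17330262, 15618499 and 12719710 in the A2 libraries and 14081314, 13694946 and 18186823 in the A3 libraries. Levels are TMM-scaled CPM, in which each library's counts are brought to a common total, and each fold change is a log2 difference, A3 minus A2, with its standard error (SE) and n = 3 libraries per population. Nothing in the labels says that replicates were grown as separate cultures, and the p-values then measure only how far these libraries spread, which may be technical. The first principal component of the 6 libraries held 68.8% of the variance, with A2 at -17.4 to -18.6 and A3 at 17.7 to 18.4. The 7 markers of mating type a summed to 1174 to 1203 CPM in A2 and 1466 to 1497 CPM in A3. The 4 markers of mating type alpha summed to 54.1 to 55.9 CPM in A2 and 59.4 to 64.2 CPM in A3, against 1763 to 1767 CPM in the tetrad-derived aneuploid population T1. The 8 markers of haploid cells summed to 663.6 to 667.4 CPM in A2 and 664.4 to 689.9 CPM in A3, and these ranges overlapped. The 11 markers of meiotic cells and spores summed to 191.5 to 199.9 CPM in A2 and 163.3 to 168.0 CPM in A3. Of the 10 tested, 3 were lower in A3 and 1 was higher. None of these markers was at 0 in all 6 libraries. BY4741 is known to lack LEU2 and MET17 and to carry a defective HIS3. The 6 libraries go against the strain label in LEU2, with 241 to 383 CPM, and in MET17, with 57.3 to 110.0 CPM, and HIS3 was at 20.4 to 36.1 CPM. URA3, also known to be deleted in BY4741, was at 0.053 to 0.503 CPM.

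With edgeR's quasi-likelihood test and a Benjamini-Hochberg adjusted p under 0.05, 3939 of 6111 genes (64.5%) differed between A3 and A2. Of these, 2093 genes (34.2%) were higher in A3 and 1846 (30.2%) were lower. With upper-quartile factors the split turned to 1840 higher and 2209 lower genes, and with total counts to 1797 and 2239. Most of the differences were small, with a median size of 0.28 on the log2 scale and a median SE of 0.04 among the genes called. Differences of 2-fold or more were found for 358 genes (5.86%) and mostly in 1 direction, with 339 genes (5.55%) higher in A3 and 19 (0.311%) lower. Over all genes the median difference was 0.01, with quartiles at -0.17 and 0.27. All 3 A3 libraries lay above all 3 A2 libraries for 36.1% of the tested genes and below them for 32.6%. Lack of overlap was therefore common and does not set a single gene apart. Ribosome assembly genes led the genes higher in A3, and genes of the glyoxylate cycle, peroxisomal fatty acid breakdown and carnitine and acetate metabolism led the genes that were lower. In bulk populations, fewer cells that express a gene and less of its RNA per cell cannot be told apart, and this holds for each value that follows.

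**Figure D1:**
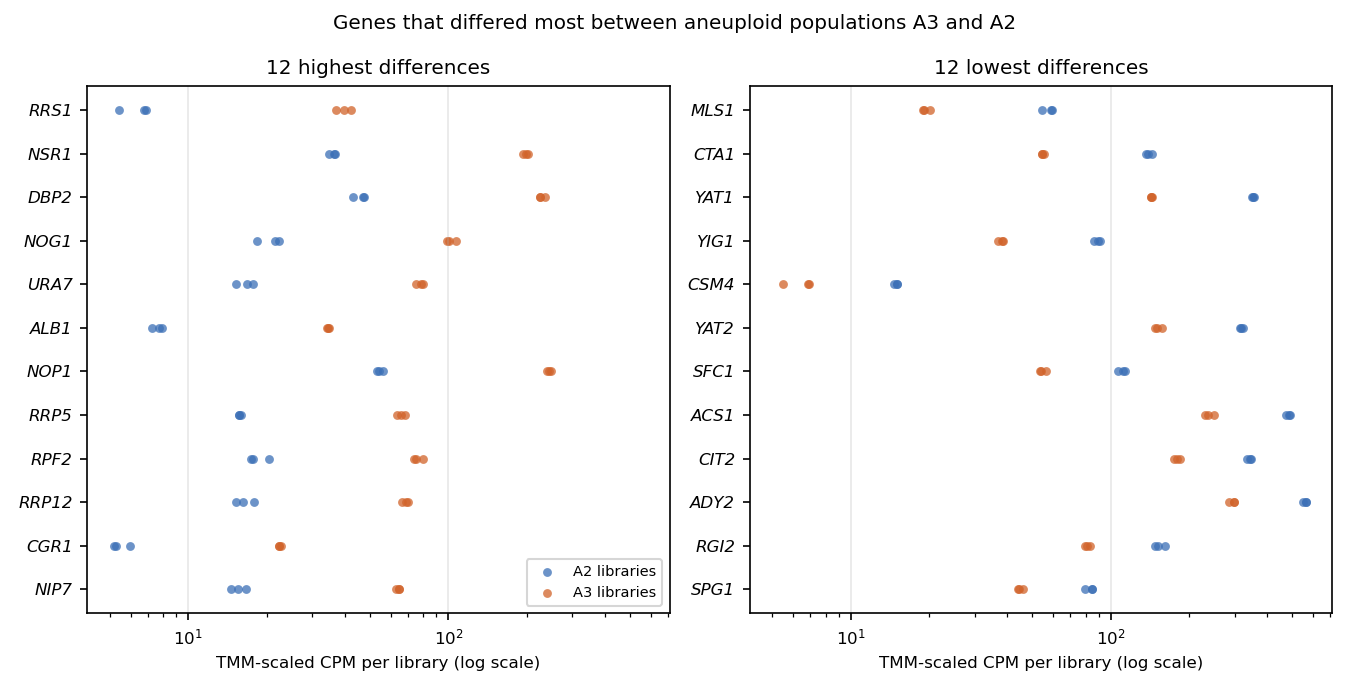
TMM-scaled CPM (log axis) in each A2 and A3 library for the 12 genes with the highest and the 12 with the lowest log2 fold change, A3 minus A2, among genes with an average log2 CPM of 3 or more. In each row the 3 A3 points lie on 1 side of the 3 A2 points, because the genes were taken from those whose libraries did not overlap.

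RRS1, which is needed to build the large ribosomal subunit, had the largest difference of these genes. RRS1 measured 5.4, 6.87 and 6.75 CPM in the A2 libraries and 39.6, 42.3 and 37.1 CPM in the A3 libraries. Every A3 library was above every A2 library, a 6.28-fold difference (log2 2.65 ± 0.10 SE, edgeR adjusted p = 3.10e-16). NSR1, a nucleolar protein of pre-ribosomal RNA processing, measured 34.8, 36.3 and 36.5 CPM in A2 and 201.7, 194.1 and 199.7 CPM in A3. The groups did not overlap (log2 2.47 ± 0.04, edgeR adjusted p = 1.99e-22), although 584 bases of NSR1 overlap another annotated gene and the sources used here do not say whether counting used strand. NOP1, the methyltransferase of box C/D small nucleolar particles, measured 54.3, 56.1 and 53.2 CPM in A2 and 243.0, 248.3 and 239.6 CPM in A3. Its A3 libraries lay 4.46-fold above A2 (log2 2.16 ± 0.05). DBP2, a DEAD-box RNA helicase, was higher in A3 by log2 2.32 ± 0.06 and the nucleolar GTPase NOG1 by 2.30 ± 0.06. ALB1, a shuttling factor of large-subunit precursors, was higher by 2.18 ± 0.06, and URA7, a CTP synthase outside ribosome assembly, by 2.23 ± 0.05.

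All 81 tested ribosome biogenesis genes were higher in A3, where 34.2% of all genes were, and 70 of them by 2-fold or more, where 5.55% of all genes were. Each list count below is to be read beside the shares of all genes, 34.2% higher and 30.2% lower. Their log2 differences ran from 0.63 for FCF1, a small-subunit processing factor, to 2.65 for RRS1, with a median of 1.42 beside 0.01 for all genes. In the single libraries the median of the list lay at -0.73 to -0.65 from the mean of the 6 libraries in A2 and at 0.69 to 0.71 in A3. Against the euploid a-selection population, whose libraries both differences share, the median was 2.31 in A2 and 3.78 in A3.

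Short promoter windows show motifs found in some of these genes, chosen as examples. The windows are 30 bases of the gene's own strand, taken from the RefSeq R64 genome, with the motif in capitals. PAC (GCGATGAG) and RRPE are the motifs known from ribosome biogenesis promoters. CTCATCGC is PAC read on the opposite strand, and the capitals of the RRPE line spell the whole of that motif.
NSR1 PAC, chrVII:807825-807854, minus strand: tgcaagggcagCTCATCGCaagaacgaaaa
DBP2 PAC, chrXIV:413473-413502, plus strand: ttacgccgatgCTCATCGCagaaaattttt
DBP2 RRPE, chrXIV:413412-413441, plus strand: attgaatgatTGAAAAATTTatttcttttt
NOG1 PAC, chrXVI:370824-370853, plus strand: tttttccgcagCTCATCGCaaagaaaaatt
ALB1 PAC, chrX:189580-189609, plus strand: tttggaatgatCTCATCGCaaaattttttt

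Promoters were searched on both strands from 250 bases before to 50 bases after the annotated start of each of 5749 tested genes with a reference entry. PAC was found in 4.11% of all these promoters, in 34.9% of the 327 promoters of genes at least 2-fold higher in A3 and in 58.0% of the 81 ribosome biogenesis promoters. RRPE was found in 4.09%, 28.4% and 43.2% of the same sets. Among the 1816 promoters of genes called lower in A3, PAC was found in 0.881% and RRPE in 0.661%. Neither motif was found in the 15 promoters of genes at least 2-fold lower, a set too small to show a lack at such shares. A promoter counted once however many matches it held. A match describes the letters and was not tested as a binding site.

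RNA polymerases I and III, which transcribe ribosomal and transfer RNA genes, followed the same direction. Of 27 subunit and initiation factor genes, 23 were higher in A3 and 1 was lower, with 12 at least 2-fold higher and a median log2 difference of 0.95. RPA190, the largest subunit of polymerase I, measured 28.1, 29.1 and 27.9 CPM in A2 and 102.3, 103.5 and 106.2 CPM in A3. All A3 libraries were above all A2 libraries (log2 1.87 ± 0.05, edgeR adjusted p = 2.12e-19). RPA12 (1.98 ± 0.13) and RPA49 (1.94 ± 0.09), also subunits of polymerase I, differed as much, while RRN10, part of its upstream activating factor, was the lower member at -0.23.

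Cytosolic ribosomal protein genes were higher by less than the assembly factors. Of 138 genes taken by symbol, 132 were higher in A3 and none was lower, with 26 at least 2-fold higher and a median of 0.77. These counts include RPP1 (0.96), a subunit of RNase P that the symbol rule took in and that is not a ribosomal protein. Members are often near-identical pairs whose reads the counting may have split, so single members are uncertain. RPL33B, the less abundant copy of a large-subunit protein gene, measured 53.4, 58.1 and 55.1 CPM in A2 and 152.6, 157.4 and 158.0 CPM in A3 (log2 1.49 ± 0.04). Its copy RPL33A measured 331.8, 330.5 and 328.6 CPM in A2 and 580.2, 602.2 and 602.0 CPM in A3 (log2 0.85 ± 0.03). Both copies were above A2 in every A3 library. RPS8B was the exception with the lowest value, at -0.22 ± 0.71, and its libraries overlapped, from 90.1 to 429 CPM in A2 and from 179 to 256 CPM in A3. Among translation factors 31 of 34 were higher and 1 was lower, with a median of 0.68. YEF3, the fungal elongation factor that acts with the ribosome's exit site, measured 743.8, 744.7 and 767.2 CPM in A2 and 2088, 2123 and 2100.0 CPM in A3, a 2.8-fold difference with no overlap.

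**Figure D2:**
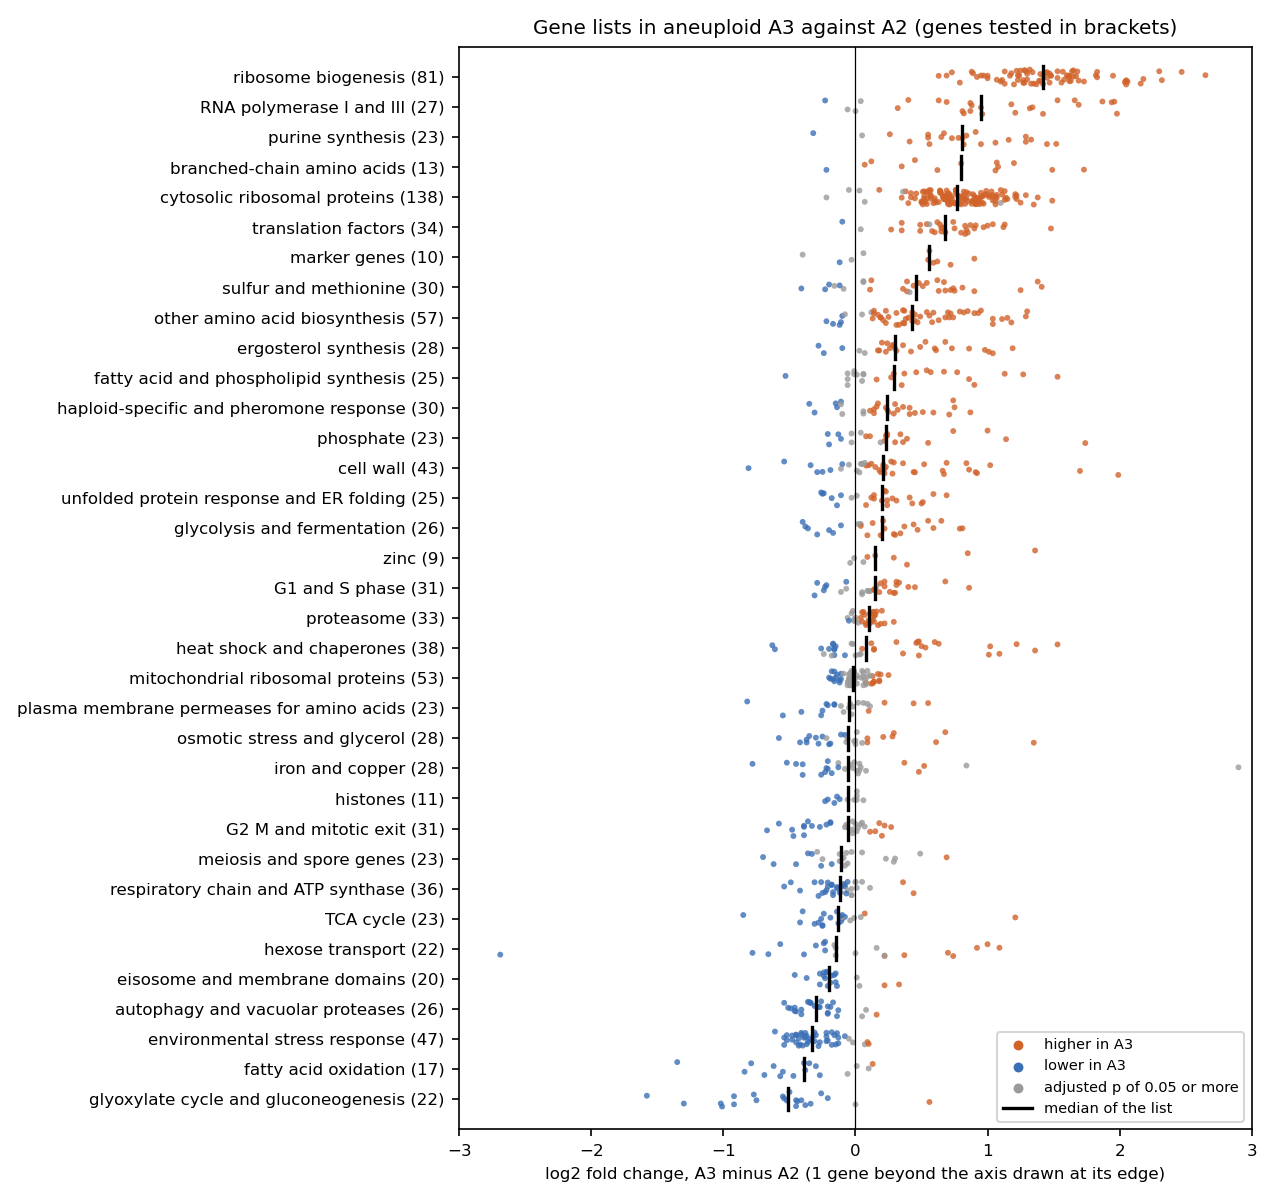
Log2 fold change, A3 minus A2, of each gene in 35 lists with at least 9 tested genes, ordered by the list median (black bar), with genes coloured by the edgeR call. Ribosome biogenesis lies at the top with a median of 1.42 and the glyoxylate cycle and gluconeogenesis list at the bottom with a median of -0.51.

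Amino acid and nucleotide synthesis genes were also mostly higher in A3. Of the 13 genes of branched-chain amino acid synthesis, 12 were higher and 1 was lower, with 6 at least 2-fold higher and a median of 0.80. ILV5, the acetohydroxyacid reductoisomerase, measured 82.2, 83.5 and 84.2 CPM in A2 and 268.8, 273.6 and 284.7 CPM in A3. Its A3 libraries were all more than 3-fold above its A2 libraries (log2 1.73 ± 0.03, edgeR adjusted p = 1.99e-22). LEU9, a minor isoform of isopropylmalate synthase, was higher by 1.49 ± 0.05, while the major isoform LEU4 differed by 0.07 ± 0.03. BAT1, the mitochondrial branched-chain aminotransferase, was higher by 1.20 ± 0.04. BAT2, its cytosolic counterpart, was the lower member, with 425.6, 426.4 and 424.1 CPM in A2 and 361.1, 364.7 and 366.5 CPM in A3 (log2 -0.22 ± 0.02). The call of LEU4 was lost under several settings, such as upper-quartile scaling (log2 0.03, edgeR adjusted p = 0.408).

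Promoter windows of ILV5 and BAT1, which were among the higher genes of this pathway, are shown for the letters known from its regulators. TGACTC is the core of the site known for Gcn4, the activator of amino acid synthesis genes. The motif of Leu3, the regulator of leucine synthesis, is printed in capitals with its 2 free bases in the middle.
ILV5 Gcn4, chrXII:839376-839405, minus strand: gatgacctaactTGACTCaatggcttttac
BAT1 Gcn4, chrVIII:517349-517378, plus strand: attgccttcttaTGACTCaaaattctattg
BAT1 Leu3, chrVIII:517375-517404, plus strand: attgtgtttgCCGGTACCGGcctttaagct
The Leu3 motif was found in 3 of the 13 promoters of this pathway (23.1%) and in 0.139% of all tested promoters. The Gcn4 core was found in 53.8% of the 13 promoters, and in 56.1% of the 57 promoters of other amino acid synthesis genes, against 8.21% of all tested promoters. Promoters at least 2-fold higher in A3 held it in 9.79%, close to the share of all genes. GCN4 itself was higher in A3 by 0.38 ± 0.02.

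Other amino acid synthesis genes were higher in 49 of 57 cases and lower in 5, with a median of 0.43. HIS1 (1.30 ± 0.07) and ARG1 (1.29 ± 0.07), enzymes of histidine and arginine synthesis, had the largest differences. Sulfur and methionine genes were higher in 21 of 30 cases and lower in 4, with a median of 0.46. SAM1, an S-adenosylmethionine synthetase, measured 105.4, 112.6 and 107.7 CPM in A2 and 288.2, 291.5 and 287.6 CPM in A3. These groups did not overlap (log2 1.41 ± 0.03), and SAH1, which clears S-adenosylhomocysteine, was higher by 1.38 ± 0.03. Purine synthesis genes were higher in 21 of 23 cases and lower in 1, with a median of 0.81. AAH1, adenine deaminase, led them at 1.52 ± 0.04 and ADE4, the first enzyme of the pathway, followed at 1.45 ± 0.06.

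Genes for lipids, the cell wall and glycerol were higher in part. OLE1, the only fatty acid desaturase of this yeast, measured 93.7, 101.4 and 97.9 CPM in A2 and 282.3, 285.7 and 279.9 CPM in A3. That is a 2.89-fold difference without overlap (log2 1.53 ± 0.03, edgeR adjusted p = 1.34e-21). The elongases ELO3 (1.27 ± 0.06) and ELO2 (1.13 ± 0.03) and fatty acid synthase FAS1 (0.90 ± 0.03) were also higher, and of 25 fatty acid and phospholipid genes 15 were higher and 1 was lower. Ergosterol genes were higher in 23 of 28 cases and lower in 3, with a median of 0.30. CYB5, an electron donor of sterol synthesis, led them at 1.19 ± 0.11. Of 43 cell wall genes 29 were higher and 7 lower, led by the anaerobic mannoprotein DAN1 (1.99 ± 0.17) and the chitin transglycosylase UTR2 (1.70 ± 0.05). GPP1, a glycerol phosphatase, measured 142.6, 139.8 and 142.0 CPM in A2 and 360.2, 361.9 and 360.4 CPM in A3. Its isoform GPP2, known to be induced by osmotic stress, measured 141.7, 142.1 and 136.7 CPM in A2 and 216.6, 212.4 and 211.4 CPM in A3. Both isoforms were above A2 in every A3 library, GPP1 by 1.35 ± 0.02 and GPP2 by 0.61 ± 0.04. The 28 osmotic stress and glycerol genes were divided into 8 higher (28.6%) and 12 lower (42.9%), against 34.2% and 30.2% of all genes.

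Carbon metabolism moved in both directions. The lowest log2 difference of the well-expressed genes was that of MLS1, the malate synthase of the glyoxylate cycle, with 59.3, 59.1 and 54.5 CPM in A2 and 19.0, 20.1 and 19.1 CPM in A3. All A3 libraries were below all A2 libraries, a change of -66.5% by the fit (log2 -1.58 ± 0.04, edgeR adjusted p = 9.75e-19). ICL1, the isocitrate lyase of the same cycle, measured 487.9, 475.0 and 479.8 CPM in A2 and 286.2, 285.3 and 286.3 CPM in A3 (log2 -0.75 ± 0.02). Of 22 genes of the glyoxylate cycle, gluconeogenesis and acetate use, 20 were lower in A3, where 30.2% of all genes were, and 1 was higher, with a median of -0.51. The carnitine acetyltransferase YAT1 (-1.30 ± 0.05), the succinate-fumarate carrier SFC1 (-1.02 ± 0.03) and the acetate transporter ADY2 (-0.92 ± 0.02) were also lower, as was YAT2 (-1.06 ± 0.03), a carnitine acetyltransferase outside this list. Gluconeogenic FBP1 and PCK1 were lower by less, at -0.52 ± 0.03 and -0.44 ± 0.02. The acetyl-CoA synthetases differed in sign, since ACS1, used on poor carbon sources, was lower (-1.01 ± 0.03) and ACS2, used on glucose, was the higher member (0.56 ± 0.03). ACS1 and YAT1 lie on chromosome I, whose genes had a median difference of -0.34 (described below), and the share of that shift in their values was not tested.

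Peroxisomal fatty acid oxidation genes were lower in 13 of 17 cases and higher in 1, with a median of -0.39. CTA1, the peroxisomal catalase, measured 143.5, 138.6 and 136.8 CPM in A2 and 54.4, 54.3 and 55.3 CPM in A3 (log2 -1.35 ± 0.05). POX1, the acyl-CoA oxidase (-0.84 ± 0.07), and POT1, the thiolase (-0.79 ± 0.02), were lower too, and no A3 library of these 3 genes overlapped A2. Tricarboxylic acid cycle genes were lower in 17 and higher in 2 of 23 cases and respiratory chain genes lower in 23 and higher in 2 of 36, with small medians of -0.13 and -0.12. The citrate synthases CIT2 (-0.92 ± 0.02), CIT3 (-0.85 ± 0.08) and CIT1 (-0.42 ± 0.02) were lower. YIG1 (-1.23 ± 0.04), known from glycerol production, and CSM4 (-1.22 ± 0.10), known from meiotic chromosome movement, are neighbours on chromosome XVI and were both among the 12 lowest. The isoforms of cytochrome c differed in sign, with CYC1 higher by 0.44 ± 0.07 and CYC7 lower at -0.54 ± 0.04.

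Glucose uptake and glycolysis genes showed paralogs on opposite sides. HXT3, a low-affinity glucose transporter, measured 239.6, 238.0 and 241.8 CPM in A2 and 478.6, 467.0 and 488.2 CPM in A3 (log2 1.00 ± 0.03). HXT5, a transporter expressed in slow growth, measured 885.8, 874.6 and 868.6 CPM in A2 and 590.8, 594.8 and 582.3 CPM in A3 (log2 -0.57 ± 0.02). HXT1 (0.92 ± 0.04), HXT4 (0.70 ± 0.02) and the glucose-induced repressor MIG2 (1.09 ± 0.04) were also higher. Of 22 tested genes 7 were higher (31.8%) and 9 lower (40.9%), against 34.2% and 30.2% of all genes. HXT15 was called lower only through A2 replicate 2, with 14.3 CPM there and 1.27 and 1.29 CPM in the other A2 libraries. Without that library its log2 difference was -0.55 and its adjusted p 0.222. Of 26 glycolysis and fermentation genes 17 were higher and 7 lower, with a median of 0.20. Hexokinase HXK2 (0.55 ± 0.02) and enolase ENO2 (0.81 ± 0.04), both used on glucose, were higher, and HXK1 (-0.38 ± 0.02), GLK1 (-0.40 ± 0.03) and ENO1 (-0.11 ± 0.03) were lower. TDH3, the main glyceraldehyde-3-phosphate dehydrogenase, measured 11355 to 12316 CPM in A3 and 11267 to 11914 CPM in A2, and these overlapped (log2 0.04 ± 0.04, edgeR adjusted p = 0.392).

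Stress genes were lower by smaller steps. Of 47 genes of the environmental stress response, 42 were lower in A3 and 2 were higher, with a median of -0.33 and none past 2-fold. HSP12, a small membrane-protecting stress protein, measured 7884, 7536 and 7435 CPM in A2 and 4903, 5134 and 4987 CPM in A3. Its A3 libraries were all below A2, a change of -34.3% by the fit (log2 -0.61 ± 0.03, edgeR adjusted p = 1.62e-13), and the cytosolic catalase CTT1 was lower by a like amount (-0.52 ± 0.02). The stress response element AGGGG, known as the site of Msn2 and Msn4, lies in the HSP12 promoter and is printed as its other strand reads.
HSP12 STRE, chrVI:107053-107082, plus strand: ggttccggtcgtcCCCCTcttgatctgaaa
This element was found in 70.2% of the 47 promoters, in 33.2% of the 1816 promoters of genes lower in A3, in 22.0% of all tested promoters and in 7.95% of those at least 2-fold higher in A3. Autophagy and vacuolar protease genes were lower in 23 of 26 cases and higher in 1, with a median of -0.30, and ATG14 had the largest difference at -0.54 ± 0.04. Eisosome and membrane domain genes were lower in 16 of 20 cases and higher in 2, with a median of -0.20. FMP45, a protein of membrane furrows, had the largest difference there at -0.46 ± 0.03.

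Chaperone genes differed in both directions. Of 38 genes, 20 (52.6%) were higher and 11 (28.9%) lower, against 34.2% and 30.2% of all genes, with a median of 0.08. CNS1, a co-chaperone of Hsp90, had the largest difference, at 1.53 ± 0.07. SSB1, an Hsp70 bound to ribosomes, measured 391.2, 396.5 and 398.1 CPM in A2 and 912.5, 920.4 and 928.7 CPM in A3 (log2 1.22 ± 0.03), with 630 bases of the gene overlapping another. ZUO1, its ribosome-bound partner, measured 216.6, 208.5 and 214.5 CPM in A2 and 455.6, 451.7 and 452.2 CPM in A3 (log2 1.09 ± 0.03). SSA4, a stress-induced Hsp70, measured 531.8, 516.4 and 520.2 CPM in A2 and 337.9, 331.8 and 344.2 CPM in A3 (log2 -0.63 ± 0.03). None of SSB1, ZUO1 and SSA4 overlapped between the groups. In the stress response list, the heat shock proteins HSP26 (-0.45 ± 0.03), HSP42 (-0.27 ± 0.02) and HSP104 (-0.18 ± 0.02) were lower as well. Genes of the unfolded protein response and folding in the endoplasmic reticulum were higher in 17 of 25 cases and lower in 6, with a median of 0.20. SEC63, a subunit of the translocation machinery, led them at 0.69, and KAR2, the Hsp70 of this compartment, was higher by 0.31. Proteasome genes differed little, with 24 of 33 higher and 1 lower and a median of 0.10. Over the settings 14 to 24 of them were higher and 1 to 4 lower.

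Uptake genes gave smaller lists. DIP5, a permease for acidic amino acids, measured 395.9, 387.4 and 403.8 CPM in A2 and 223.4, 226.1 and 220.8 CPM in A3. Every A3 library of DIP5 was lower (log2 -0.82 ± 0.02). Of 23 amino acid permeases 4 were higher (17.4%) and 9 lower (39.1%), against 34.2% and 30.2% of all genes. PHO3, a constitutive acid phosphatase, was higher by 1.74 ± 0.05 and the phosphate transporter PHO84 by 1.00 ± 0.03, and of 23 phosphate genes 15 were higher and 4 lower. Most of PHO84, 1764 bases, overlaps another annotated gene. Iron and copper genes were higher in 3 (10.7%) and lower in 12 (42.9%) of 28 cases, led by FRE5 (-0.78 ± 0.05) and FIT3 (-0.52 ± 0.05). Zinc genes were higher in 6 of 9 cases and lower in none. Among 31 G1 and S phase genes 17 were higher and 6 lower, led by the ribonucleotide reductase RNR1 (0.86 ± 0.04). Among 31 genes of G2, mitosis and mitotic exit 6 were higher (19.4%) and 13 lower (41.9%), led by the daughter cell genes DSE3 (-0.67 ± 0.02) and ASH1 (-0.58 ± 0.03). Of 11 histone genes 5 were lower and none was higher, with a median of -0.06. Mitochondrial ribosomal protein genes were nearly even as reported, with 11 of 53 higher (20.8%) and 12 lower (22.6%), both below the shares of all genes. This balance depended on the processing, with 4 to 11 higher and 12 to 20 lower over the settings.

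Mating genes were mostly higher in A3. The a-factor gene MFA2 measured 143.9, 137.0 and 141.3 CPM in A2 and 239.7, 241.8 and 239.8 CPM in A3 (log2 0.77 ± 0.04). STE2, the receptor for alpha-factor, was higher by 0.32 ± 0.02, and 5 of the 7 a-specific genes were higher and none lower. STE6 (-0.03 ± 0.03) and ASG7 (0.04 ± 0.04) did not pass. Of 30 haploid-specific and pheromone response genes 21 were higher and 5 lower, with a median of 0.24. PRM10 (0.87 ± 0.04) and the agglutinin anchor AGA1 (0.75 ± 0.05) led those at a level above 10 CPM, and the pheromone response regulator STE12 was higher by 0.51 ± 0.03. The lower genes of this list included RME1 (-0.35), PRM4 (-0.31) and STE5 (-0.11). The alpha-factor gene MF(ALPHA)1 was measured by few reads, at 0.359 to 0.822 CPM in A2 and 1.26 to 2.34 CPM in A3. Of the 4 alpha-specific genes 3 were higher, of which SAG1 lost its call under some settings, and STE3, the a-factor receptor, did not pass (0.11). Meiosis and spore genes were lower in 7 and higher in 1 of 23 tested cases, and the share lower (30.4%) was that of all genes (30.2%).

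Genes higher in A3 than in A2 tended also to be higher in the haploid control than in the euploid tetrad population, a difference that shares no library with A2 or A3. Across 5314 genes with an average log2 CPM of 3 or more, A3 minus A2 followed haploid control minus euploid tetrad with Pearson r 0.849, Spearman rho 0.837 and a slope of 0.152. Genes are not independent replicates, so these values describe the genes and carry no p. The slope ran from 0.149 to 0.155 over the 9 pairs of single A3 and A2 libraries. Around the line the SD was 0.23, against 0.44 for A3 minus A2 itself. Farthest above the line among these genes was LEU2, with 245.2, 241.3 and 246.7 CPM in A2 and 371.6, 374.0 and 382.8 CPM in A3, where the haploid control had a mean of 0.0729 CPM. STL1, a glycerol transporter, was also far above the line, higher in A3 by only 0.29 ± 0.02 but at 2023 CPM on average in the euploid tetrad population and 0.604 CPM in the haploid control.

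**Figure D3:**
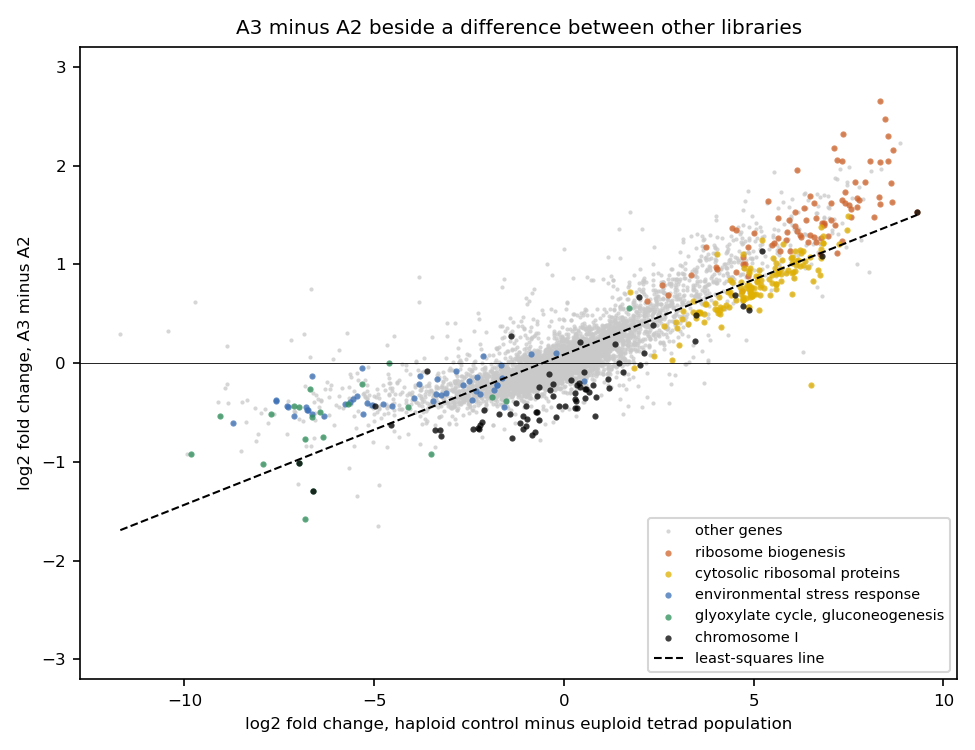
Log2 fold change, A3 minus A2, against the log2 fold change, haploid control minus euploid tetrad population, for 5314 genes, with 4 gene lists and chromosome I in colour and the least-squares line dashed. Ribosome genes lie at the upper right and stress and glyoxylate genes at the lower left, and most chromosome I genes lie below the line.

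The tetrad-derived aneuploid populations T2 and T1 form another pair from 1 route and share no library with A3 and A2. In T2 against T1, 4220 genes (69.1%) were called. Of 3226 genes called in both pairs, 2877 had the same sign and 349 had opposite signs. Across the 5314 genes A3 minus A2 followed T2 minus T1 with Pearson r 0.753 and Spearman rho 0.72. The difference between the pairs, (A3 minus A2) minus (T2 minus T1), was called for 2605 genes (42.6%), of which 1548 (25.3%) were positive and 1057 (17.3%) negative.

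ADE17, SHM2, PHO84 and MET6 were among the genes whose difference was higher in A3 minus A2 than in T2 minus T1. ADE17, which catalyses the last steps of IMP synthesis, measured 110.9, 110.2 and 112.2 CPM in A2 and 270.5, 269.5 and 274.3 CPM in A3, and was thus higher in each A3 library (log2 1.29 ± 0.03). In the other pair it went the opposite way, from a mean of 321.3 ± 6.84 CPM (SD, n = 3) in T1 to 113.8 ± 2.96 CPM in T2, and the difference between pairs was 2.79 ± 0.05 (edgeR adjusted p = 3.81e-22). SHM2, the cytosolic serine hydroxymethyltransferase, was 1.18 in A3 minus A2 and -0.90 in T2 minus T1, a difference of 2.08 ± 0.04. PHO84 was 1.00 and -1.37, and MET6, methionine synthase, 1.25 and -0.75. Of 23 purine genes, 14 were higher and 3 lower in this test, and the median was 0.81 in A3 minus A2 against -0.02 in T2 minus T1. For the 13 branched-chain genes 12 were higher and 1 was lower, with medians of 0.80 and 0.16. Of 26 glycolysis and fermentation genes 23 were higher and 0 lower, with medians of 0.20 and -0.53. Of 36 respiratory chain genes 32 were higher and 1 lower, with medians of -0.12 and -0.60, and of 38 chaperone genes 33 were higher and 0 lower, with medians of 0.08 and -0.32.

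Acetate and glyoxylate genes differed between the pairs in the other direction. Of 22 genes, 18 were lower and 2 higher in the test of the difference, with a median of -0.51 in A3 minus A2 and 0.05 in T2 minus T1. YAT1 was -1.30 in A3 minus A2 and 0.74 in T2 minus T1, and ADY2 was -0.92 and 1.25. MLS1 was lower in both pairs, at -1.58 and -1.20. NCE103, a carbonic anhydrase, gave the lowest difference between pairs of the genes without near-identical copies, at -0.23 ± 0.03 in A3 minus A2 and 2.06 ± 0.03 in T2 minus T1. Ribosome biogenesis genes were called in 50 of 81 cases, 44 of them lower and 6 higher, with medians of 1.76 in T2 minus T1 and 1.42 in A3 minus A2. RNA polymerase I and III genes were lower in 9 and higher in 3 of 27 cases. Other genes of translation went the opposite way. In the cytosolic ribosomal protein list 106 of 138 were higher and 1 lower, with medians of 0.48 in T2 minus T1 and 0.77 in A3 minus A2. Translation factors were higher in 19 and lower in 1 of 34 cases, with medians of 0.59 and 0.68. Stress genes were higher in 37 and lower in 2 of 47 cases, with medians of -0.33 in A3 minus A2 and -0.67 in T2 minus T1, so they were lower by less in A3 minus A2.

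Chromosome I stood apart from the other chromosomes, as a description without a test. The median log2 difference of its 96 tested genes was -0.34, which is a change of -21.2%, while the medians of the other 15 chromosomes lay between -0.03 and 0.07. Of the 96 genes, 62 (64.6%) were lower and 12 (12.5%) were higher, against 29.7% lower among the 6015 genes elsewhere. In the 3 A2 libraries the chromosome median lay 0.16, 0.19 and 0.18 above the mean of the 6 libraries, and in the 3 A3 libraries it lay at -0.16, -0.16 and -0.18. The groups did not overlap on this chromosome, nor on some others such as XIII and XIV, where A2 lay at -0.04 to -0.03 and A3 at 0.03 to 0.04. What set chromosome I apart was the size, since on no other chromosome did any library lie farther than 0.04 from the mean.

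**Figure D4:**
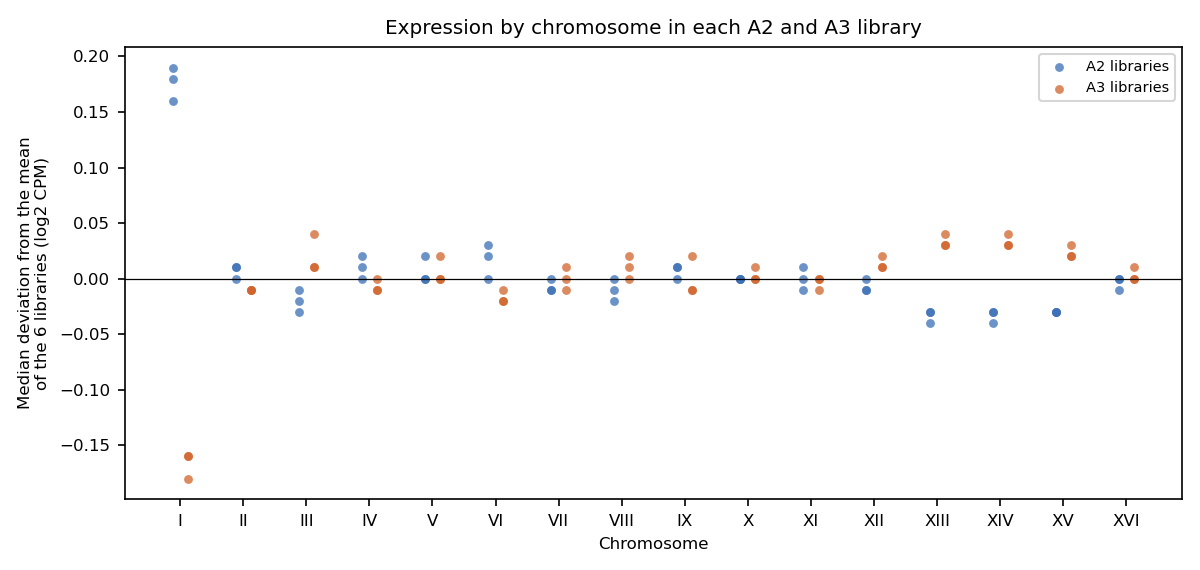
Median deviation of each library's log2 CPM from the mean of the 6 libraries, over the tested genes of each chromosome, with 3 A2 and 3 A3 libraries as points. On chromosome I the A2 libraries lie at 0.16 to 0.19 and the A3 libraries at -0.16 to -0.18, and on the other chromosomes every point is within 0.04 of 0.

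The shift was as large among genes that the haploid control and the euploid tetrad population barely separate. The median distance of chromosome I genes from the least-squares line was -0.38, and that of the other chromosomes lay between -0.06 and 0.02. For the 35 genes of chromosome I that differed by at most 1 on the log2 scale between the haploid control and the euploid tetrad population, the median was -0.34. The genes with coordinates and enough counts formed 2 blocks of 37 along the chromosome, at -0.33 (chrI:31567-108551) and -0.39 (chrI:108877-226863) from the line, while 202 blocks elsewhere lay between -0.12 and 0.11. In T2 minus T1 the median of chromosome I was -0.07. Against the euploid a-selection population, whose libraries both differences share, it was 0.22 in A2 and -0.09 in A3. As levels, the median log2 CPM of the 96 genes was 6.08 to 6.16 in A2, 6.06 to 6.11 in A1, the remaining aneuploid population from a-selection, 5.92 to 5.95 in the euploid a-selection population and 5.72 to 5.74 in A3. Outside a-selection it was 5.74 to 5.77 in T1, 5.71 to 5.80 in the euploid tetrad population, 5.59 to 5.63 in T2 and 5.39 to 5.41 in the haploid control. The A3 level was thus the lowest within a-selection but not in the series. A higher mean copy number of this chromosome in A2, a lower one in A3 and a different output per copy cannot be told apart from these counts.

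Genes of chromosome I spanned many functions. BDH1 and BDH2, a butanediol dehydrogenase and its neighbour of the same family, were both lower. BDH2 measured 3378, 3359 and 3283 CPM in A2 and 2128, 2152 and 2193 CPM in A3 (log2 -0.63 ± 0.03), and BDH1 was lower by a similar size (-0.74 ± 0.02). FUN19, of unknown function, measured 399.5, 398.1 and 389.3 CPM in A2 and 248.1, 242.2 and 248.2 CPM in A3 (log2 -0.68 ± 0.02). TFC3 (-0.70 ± 0.04), a subunit of TFIIIC, the oxysterol-binding protein homologue SWH1 (-0.76 ± 0.04) and the PAS kinase PSK1 (-0.67 ± 0.03) were lower, as was the G1 cyclin CLN3 (-0.22 ± 0.04). The 4 genes at least 2-fold lower were YAT1, DFP2, ACS1 and the low-count YAL016C-A. The 12 higher genes were led by MAK16 (1.53 ± 0.08), a ribosome assembly factor, followed by ECM1 (1.13 ± 0.08), an export factor of large-subunit precursors, and RBG1 (1.08 ± 0.07), a GTPase of translation. ADE1 (0.67 ± 0.03), the elongation factor EFB1 (0.58 ± 0.02) and CYS3 (0.54 ± 0.03) were among the rest.

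**Figure D5:**
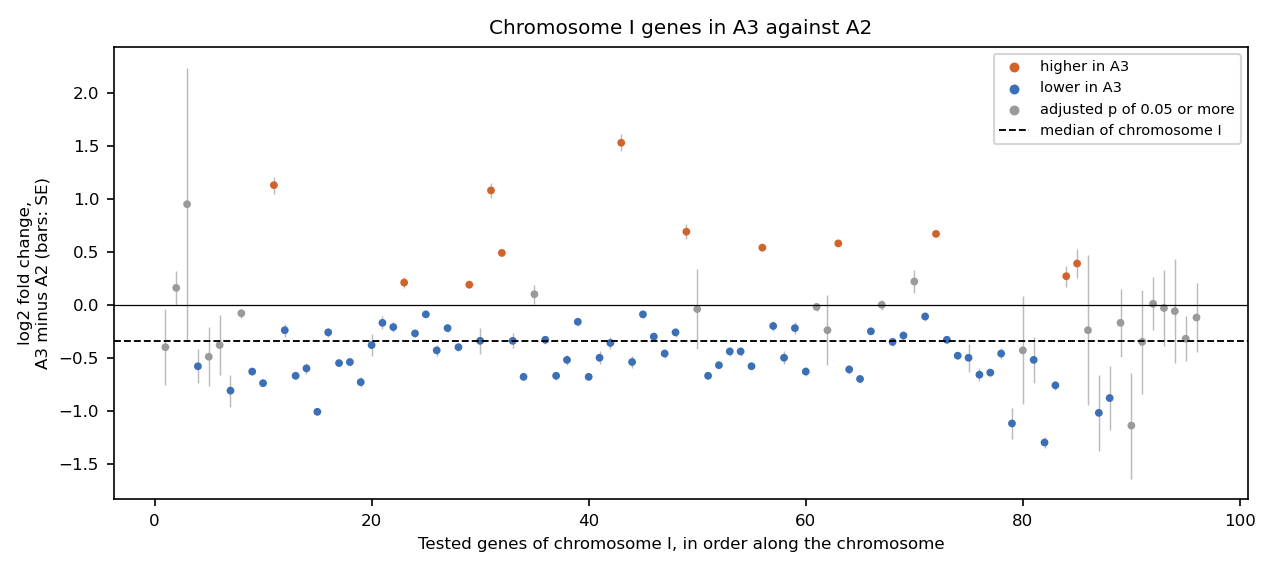
Log2 fold change, A3 minus A2, with its SE for each of the 96 tested genes of chromosome I, coloured by the edgeR call, with the chromosome median of -0.34 dashed. Genes with coordinates are in order along the chromosome, and genes without coordinates are placed at the right end. Among genes with coordinates, those lower in A3 occur from YAL064W-B (start 12046) to SWH1 (end 196185). Most of the 12 higher genes are scattered among them, and FLO1 and PHO11 lie beyond SWH1.

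A few large differences rested on 1 library or on near-identical copies. YIL177C, a subtelomeric helicase-like gene, had 69.7 CPM in A2 replicate 2 and 1.06 and 1.36 CPM in the other A2 libraries, against 0.977 to 1.28 CPM in A3. Without that library its log2 difference went from -4.40 to -0.08 with an adjusted p of 0.962. YCL065W had 39 counts in A3 replicate 3 and 0 in each of the other 5 libraries, and DESeq2 gave it an adjusted p of 0.387. CUP1-2, at a log2 difference of 4.56, did not pass the test, and its copies cannot be told apart by these counts. DPA10 showed a difference in all libraries at a low level, with 10.1, 9.1 and 7.18 CPM in A2 and 2.83, 1.95 and 1.61 CPM in A3 (log2 -2.07 ± 0.21). Besides NSR1, SSB1 and PHO84, named genes that include LEU9, RPL33A, DSE3, ECM1, EFB1, HXK1, GLK1, STE3 and YAL016C-A overlap another annotated gene by more than 100 bases, and reads there may have been counted for either gene.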

How the data were processed

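RNA was sequenced from 23 libraries of 8 yeast populations, and A2 and A3 have 3 libraries each. The authors deposited raw counts of reads per gene. Per the submitters' processing notes, the genome build was R64 and the tools included HTSeq 0.6.1p1 and HISAT2 2.0.5, besides FastQC 0.11.5, bcl2fastq 2.17.1.14, DESeq and DESeq2 1.14.1. The strand setting and the handling of reads with several matches are not given in those notes, so overlapping and near-identical genes are uncertain. The other values of the authors' deposited tables (gene starts and ends) served only to compare builds, where 5807 of 5809 starts matched the R64 reference.

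From the counts, edgeR 4.0.16 (R 4.3.3) fitted all 23 libraries by group with TMM scaling, its quasi-likelihood test and Benjamini-Hochberg adjustment over 6111 genes that passed its filter on low counts, of 6596. The common biological coefficient of variation was 5.05%, on 15 residual degrees of freedom, and CPM used a prior count of 2 for log values. Genes were called at an adjusted p of 0.05. Pairs of replicates each differed by more than sampling noise. A3 replicate 3 stood out, with a chi-square per degree of freedom of 23.9 and 25.42 against A3 replicates 1 and 2. The other pairs within A2 and A3 had 4.603 to 9.512. The script was tested on simulated data.

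Genes named are the 12 highest and 12 lowest with an average log2 CPM of 3 or more and no overlap between groups, up to 4 called genes per list, the mating-type markers, the 5 highest and lowest distances from the line and the 3 highest and lowest differences from T2 minus T1. By this rule 181 genes were taken, and 66 more were named after their values were seen. The members and the 37 gene lists were chosen with earlier results of these data known. Alternatives were other scalings and filters, DESeq2 1.42.0, fewer libraries, a replicate block, a stricter threshold and each library left out.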

Additional observations from a re-analysis of the deposited data

How the results depend on the processing

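The number of genes called between A3 and A2 was 3939 and ran from 3397 (adjusted p under 0.01) to 4049 (upper-quartile factors) over the other settings, and from 3705 to 3767 when 1 library was left out. DESeq2 called 3783. Genes at least 2-fold apart numbered 327 to 364 over the settings and 350 to 365 with 1 library left out. With 1 library left out, 1956 to 1994 genes were higher and 1735 to 1773 lower, and 2450 to 2537 genes differed between A3 minus A2 and T2 minus T1, against 2605 as reported, 2019 (adjusted p under 0.01) to 3275 (total counts) over the other settings and 2356 with DESeq2. Upper-quartile factors and total counts shifted the median over all genes by -0.05, which changed the direction holding more genes. No named gene that was called reversed its sign. No list median changed sign in these settings; that of the 4 alpha-specific genes went from 0.81 to 0.11 when genes with a mean count under 50 were left out, which removes the low-count alpha-factor genes. Counts of called genes did move in lists with a median near 0, such as the proteasome and mitochondrial ribosomal protein lists. The chromosome I median ran from -0.39 to -0.32. Among the named genes, 40 values over all settings lost their call and 6 gained one, in LEU4, FLO1, PRM1, PRM6, PHO11, SAG1, CAN1, ERR1, STE6, YIL177C, HXT15, YCL065W and YLR154C-G. The cause was not tested.

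Replicate numbers did not visibly pair the A2 and A3 libraries. Deviations of same-numbered A2 and A3 libraries correlated at -0.00254, 0.0207 and 0.0465. Over 63 same-numbered pairs of libraries from different populations, without the haploid control, r ran from -0.17 to 0.175. The median was -0.0024, and 7 pairs were over 0.1. With a replicate block 3904 genes were called, 2077 higher and 1827 lower, and 2593 differed between the pairs of populations. The fit of only the 6 libraries with the block, chosen after seeing the data, called 3938. Genes with few reads, such as MF(ALPHA)1, are limited by depth.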
